A study of Mus musculus with 12 samples.

Results

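Livers of Atf4-knockout mice, labelled LsATF4-KO, were compared 6 h after tunicamycin and 6 h after the solvent DMSO. The comparison covers every named locus with 1 FPKM or more (read fragments scaled to transcript length and library size) in either knockout group, which gave 11689 of the 27109 loci and of the 23951 named loci in the authors' deposited table. All mice were C57BL/6, and poly(A) RNA of whole liver was sequenced from 12 libraries in 4 groups of 3. The knockout groups had the genotype LsATF4-/- and received 1 mg/kg tunicamycin or 0.3% DMSO by intraperitoneal injection. Wild-type mice received the same agents for the same 6 h and serve for comparison. The sources used here do not give the driver of the deletion, the deleted exons, the age of the mice, or whether the 3 libraries of a group are 3 animals. The table holds 1 pooled FPKM per locus and group, so no spread between livers can be given, and the authors' Cuffdiff test of each comparison stands in for it. The 3 knockout DMSO libraries ran on lane 5 and the other 9 libraries on lane 4, so lane and treatment cannot be told apart at a single locus of the knockout response. The wild-type response lies within lane 4 and shares no library with that of the knockout. Where 4 values follow each other, they are those of wild type with DMSO and with tunicamycin and then of the knockout with DMSO and with tunicamycin.

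Tunicamycin blocks N-linked glycosylation, so that proteins misfold in the endoplasmic reticulum (ER) and the unfolded protein response starts. The sensor PERK phosphorylates the initiation factor eIF2 and lowers translation while the ATF4 message is translated more, and ATF4 with its partners turns on genes of amino acid supply, tRNA charging and the stress factors CHOP (Ddit3), ATF3 and TRIB3. The sensors ATF6 and IRE1, the latter through XBP1, turn on ER chaperones, ER-associated degradation and the secretory machinery. In liver, prolonged ER stress is known to lower genes of metabolism.

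Different promoter elements set these branches apart, and the stretches below show them in genes whose values the results turn on. The ER stress response element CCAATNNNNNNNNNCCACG, with 9 free bases between its ends, is read by ATF6 with NF-Y, and the amino acid response element TGATGNAA is read by ATF4 with C/EBP proteins. Both strands of RefSeq promoters were searched (build GRCm38.p6, 250 bases before to 50 after each start). Each stretch is printed 5′ to 3′ along the gene, and the capitals mark the whole element, which reads as its reverse complement where it lies on the other strand. ER stress response elements stood before these genes of protein folding and degradation:
Creld2 (chr15:88819500-88819558, + strand): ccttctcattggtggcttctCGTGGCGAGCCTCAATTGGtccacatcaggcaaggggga
Derl3 (chr10:75893222-75893280, + strand): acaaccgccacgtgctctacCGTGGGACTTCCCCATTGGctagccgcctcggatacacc
Syvn1 (chr19:6046512-6046570, + strand): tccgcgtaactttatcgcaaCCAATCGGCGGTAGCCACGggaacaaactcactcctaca
Dnajc3 (chr14:118937807-118937865, + strand): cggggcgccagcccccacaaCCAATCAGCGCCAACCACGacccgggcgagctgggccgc
Calr (chr8:84847055-84847113, - strand): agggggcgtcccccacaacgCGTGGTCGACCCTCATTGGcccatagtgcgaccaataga
Pdia6 (chr12:17266471-17266529, + strand): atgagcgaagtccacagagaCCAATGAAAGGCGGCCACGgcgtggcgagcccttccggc
Amino acid response elements stood before these genes of the ATF4 branch:
Atf3 (chr1:191183416-191183463, - strand): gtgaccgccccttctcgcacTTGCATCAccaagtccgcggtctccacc
Nupr1 (chr7:126625553-126625600, - strand): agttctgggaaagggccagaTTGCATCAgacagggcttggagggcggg
Fgf21 (chr7:45615602-45615649, - strand): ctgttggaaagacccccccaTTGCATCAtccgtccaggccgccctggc
Chac1 (chr2:119351029-119351076, + strand): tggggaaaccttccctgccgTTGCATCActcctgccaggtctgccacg
Gars (chr6:55037951-55037998, + strand): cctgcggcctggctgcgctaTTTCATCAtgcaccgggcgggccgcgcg

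Of 16 ER lumenal chaperone genes with a promoter in the RefSeq table, 6 held the ER stress response element (Calr, Canx, Creld2, Dnajc3, Hsp90b1 and Hspa5), against 0.137% of all 27025 promoters. The amino acid response element stood in 8 of 22 promoters of the PERK branch (Atf3, Chac1, Fgf21, Herpud1, Jdp2, Nupr1, Trib3 and Vldlr). It stood in 5 of 13 of cytosolic tRNA synthetases (Aars, Gars, Iars, Tars and Yars), against 4.51% of all promoters. The stretches printed above are all of called rises. Jdp2 (log2 -0.22 in the knockout), Slc7a11, Faf2 and Cnpy2 held the amino acid response element without a call. Among members named for 1 gene, 2.78% of the 324 that rose at least 4-fold in the knockout, 0.583% of all 1887 rises, 0.0668% of 1498 falls and 0.0184% of 5444 loci without a call held the ER stress response element. The same shares for the amino acid response element were 5.25%, 3.34%, 2.80% and 2.66%. These are matches of letters, counted without a test. They do not show that a factor was bound.

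With tunicamycin 4476 of the 11667 tested members were changed in the knockout (38.4%), with 2465 higher and 2011 lower at a deposited q under 0.05 in the authors' deposited table, where q is a p-value adjusted over all tests of the table. Over all 15534 loci tested 18.1% were higher and 14.8% lower. Changes of at least 4-fold were 439 rises and 212 falls, and changes of at least 16-fold 101 rises and 18 falls. The median log2 fold change of tested members was 0.02. The member just inside the minimum was Ammecr1 at 1.0002 FPKM in its higher group, and the nearest named locus outside it reached 0.999 FPKM. For 22 members no test was given, and 5 of them carried the status HIDATA, which marks a locus too deep for Cuffdiff to estimate. Among these 5, the ER chaperones Hspa5 (BiP) and Hsp90b1 are listed at 0 with tunicamycin in both genotypes, against 329 and 452 FPKM in the knockout with DMSO. Complement C3, transferrin (Trf) and the locus Serpina1b,Serpina1d are listed at 0 in the knockout with DMSO. Albumin (Alb), listed at 0 in all 4 groups, has the same status and is no member. Such a 0 says nothing about the transcript, so these genes enter no count of rises or falls in the knockout.

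**Figure D1:**
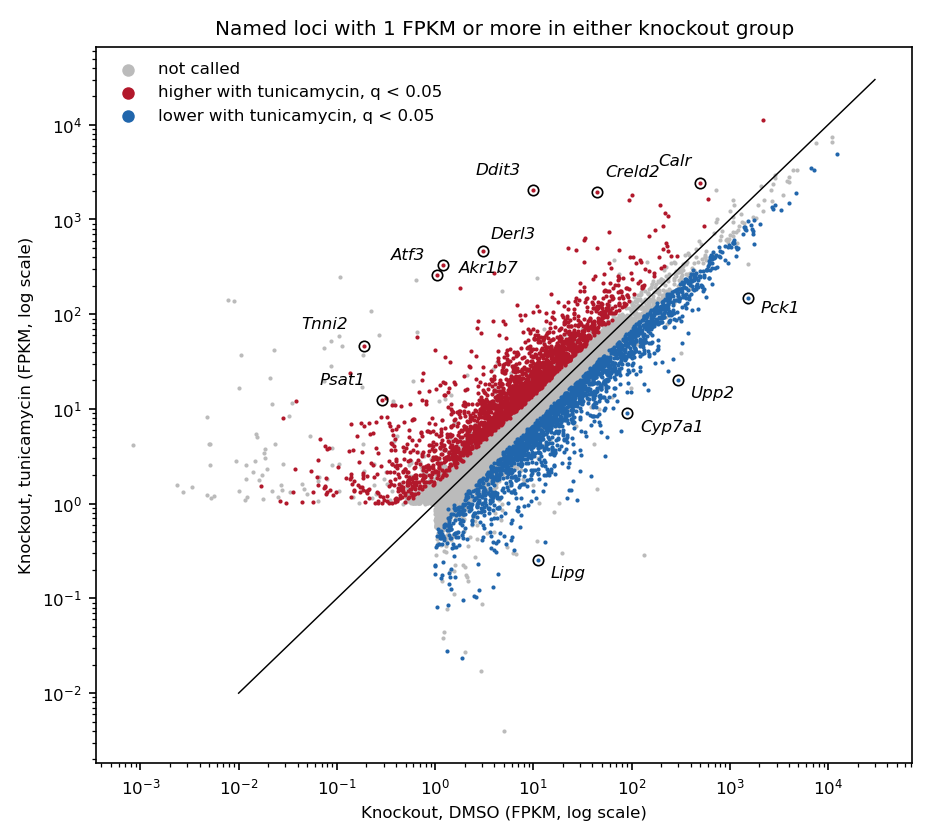
Each point is 1 of 11630 members above 0 in both groups, with FPKM in the knockout after DMSO on the x axis and after tunicamycin on the y axis (log scales, pooled values of 3 libraries). Stress genes such as Ddit3 and Creld2 lie far above the line of equal values, and Pck1, Cyp7a1 and Lipg lie below it.

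Hepatocyte markers, which define the labelled tissue, summed to 19017 FPKM in the knockout with DMSO and to 11289 with tunicamycin, with 6 of 10 tested lower. In wild type they summed to 23470 and 13836 FPKM, with 4 of 10 tested lower. These sums leave out albumin, listed at 0 in every group. Fewer cells of a type and less RNA per cell cannot be told apart in whole liver. Transcripts of other tissues stood in the knockout tunicamycin group. Of 16 skeletal muscle markers 5 were higher with tunicamycin in the knockout, with a summed level of 4.60 FPKM after DMSO and 528 after tunicamycin, against 3.50 and 9.50 in wild type. Adrenal markers were higher at 4 of 14, and their summed level went from 166 to 1613 FPKM in the knockout, against 202 and 154 in wild type. Fat markers were higher at 5 of 9, with sums of 35.2 and 293 FPKM in the knockout and 27.8 and 39.0 in wild type. Tyrosine hydroxylase (Th), which makes catecholamines in the adrenal medulla, read 0, 0.0192, 0 and 13.9 FPKM. The steroidogenic enzyme Cyp11a1 read 0.169, 0.188, 0.00889 and 138 FPKM, and skeletal actin Acta1 read 0.104, 1.21, 0.221 and 109. The knockout tunicamycin group alone was high for these genes, although Acta1 also rose in wild type (log2 3.54 in the authors' deposited table). Many carried no call in the knockout despite their folds, such as Acta1 (q 0.169) and Star, which carries cholesterol into adrenal mitochondria (q 0.222 at 0.641 and 232 FPKM). Members at least 5 times higher in this group than in each other group numbered 175, of which 89 were among the rises. Markers of liver macrophages were higher at 1 and lower at 1 of 13, and those of stellate cells higher at 1 and lower at 2 of 13. For all these marker counts the shares over all loci tested in the knockout were 18.1% higher and 14.8% lower. Kidney markers were at or near 0 in every group, with sums of at most 0.0322 FPKM. With 1 value per group it cannot be told whether 1 library or all 3 carried these transcripts, and their part in any result on liver genes was not tested.

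**Figure D2:**
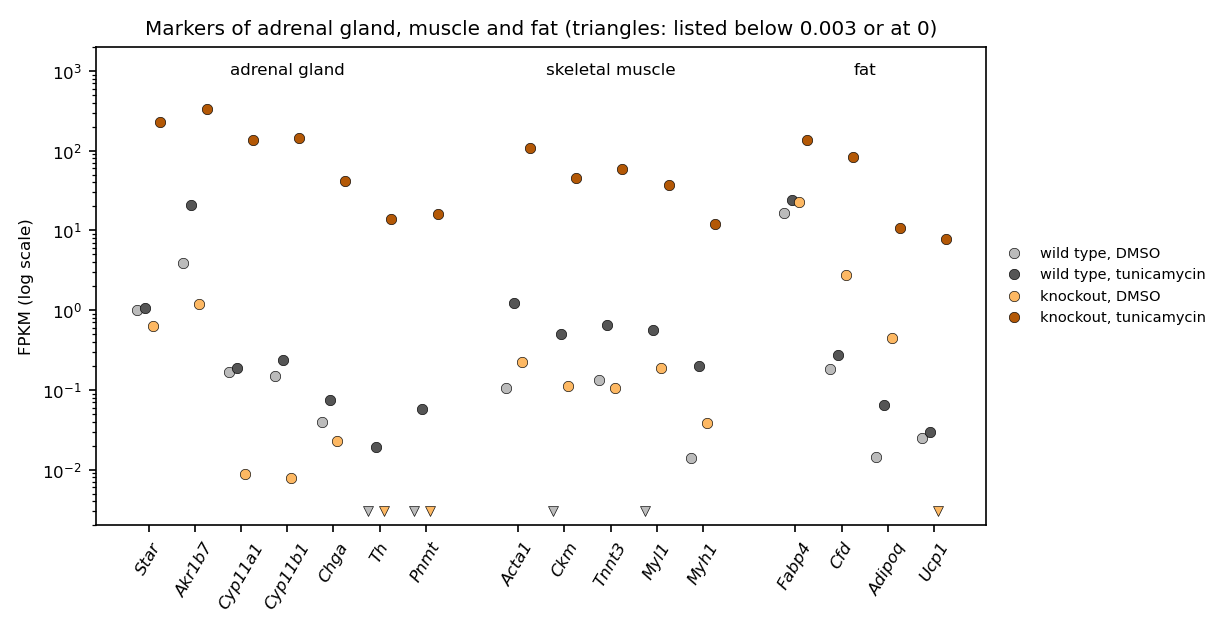
Markers of adrenal gland, skeletal muscle and fat on the x axis, with FPKM on a log y axis and 1 point per group (pooled value of 3 libraries). Triangles at the bottom stand for values listed below 0.003 FPKM or at 0. The knockout tunicamycin group lies above the other 3 for each gene shown.

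Genes of the PERK branch rose in the knockout. Of 23 tested genes of the PERK arm, ATF4 and CHOP targets 19 were higher and 0 lower, with a median log2 change of 2.33 against 0.01 over all loci tested. In wild type 20 rose and 1 fell, against 18.1% of loci higher and 19% lower over all 14998 tested there, with a median of 2.44. The pro-apoptotic factor Ddit3, or CHOP (chromosome 10, 126727723 to 126749092 in mm9), read 15.2 and 2385 FPKM in wild type with DMSO and tunicamycin and 10.03 and 2066 in the knockout. Both tunicamycin groups were far above both DMSO groups and lay close to each other. The log2 fold changes of the authors' deposited table were 7.29 in wild type and 7.69 in the knockout. Responses were compared by a z test of knockout minus wild type, with standard errors drawn from the deposited test statistics, which called the knockout response above that of wild type at 0.634% of 14510 loci and below it at 0.379%. For Ddit3 the difference of 0.39 (SE 0.62) was not called (adjusted p 0.9999, z test with Benjamini-Hochberg adjustment).

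The stress factor Atf3 (chromosome 1, 192994176 to 193007212) went from 1.06 to 261 FPKM in the knockout (log2 7.94) and from 2.58 to 395 in wild type (7.26), in the authors' deposited table. Trib3, a pseudokinase that dampens Akt and ATF4 signalling, went from 3.97 to 272 FPKM in the knockout and from 6.03 to 386 in wild type. For both genes the order of the groups was the same, with the knockout below wild type in each treatment. Gadd45a, a growth arrest gene, rose from 4.87 to 84.4 FPKM and the stress hormone Gdf15 from 14.8 to 79.9 in the knockout. Atf4 itself is counted within 1 locus together with Cacna1i, a calcium channel gene (chromosome 15, 80085614 to 80228829). The locus rose, from 22.8 to 114 FPKM in the knockout and from 46.9 to 356 in wild type. It counts whole-locus reads of every cell in the liver and does not measure the deletion.

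A set of PERK-branch genes rose in the knockout but stood lower than in wild type once tunicamycin was given. Between both tunicamycin groups 10 of the 23 genes were lower in the knockout and 2 higher, where 2.19% of 14919 tested loci were lower and 3.73% higher. Nupr1, a stress-induced chromatin protein, read 2.85 and 525 FPKM in wild type, against 1.79 and 187 in the knockout, which is log2 -1.49 between the tunicamycin groups in the authors' deposited table. The fasting and stress hormone Fgf21 (chromosome 7, 52869260 to 52870860) read 0.84, 24.05, 0.25 and 7.21 FPKM. Its rise was alike in size (4.84 and 4.85), and the knockout was low with DMSO too. The glutathione-degrading enzyme Chac1 went from 1.96 to 70.5 FPKM in wild type and from 1.38 to 16.4 in the knockout. Of the 23 genes it alone had a called difference between the responses, with -1.59 (SE 0.44) for knockout minus wild type (adjusted p 0.0382, z test).

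Others lower in the knockout between both tunicamycin groups were Ppp1r15a (GADD34), which directs the dephosphorylation of eIF2, at 60.8 and 29.6 FPKM, the mTORC1 inhibitor Ddit4 at 52.03 and 22.1, and the ER oxidase Ero1l at 51.2 and 24.4, each with wild type first. All 3 had risen in the knockout, by log2 2.44, 1.63 and 2.34 in the authors' deposited table. The translation inhibitor Eif4ebp1, a known ATF4 target, went from 35.4 to 56.4 FPKM in the knockout without a call (q 0.0688) and rose from 51.4 to 117 in wild type. The death receptor Tnfrsf10b and the cell-cycle inhibitor Cdkn1a were the 2 genes that stood higher in the knockout with tunicamycin, at 2.32 against 0.344 and 59.8 against 38.8 FPKM.

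**Figure D3:**
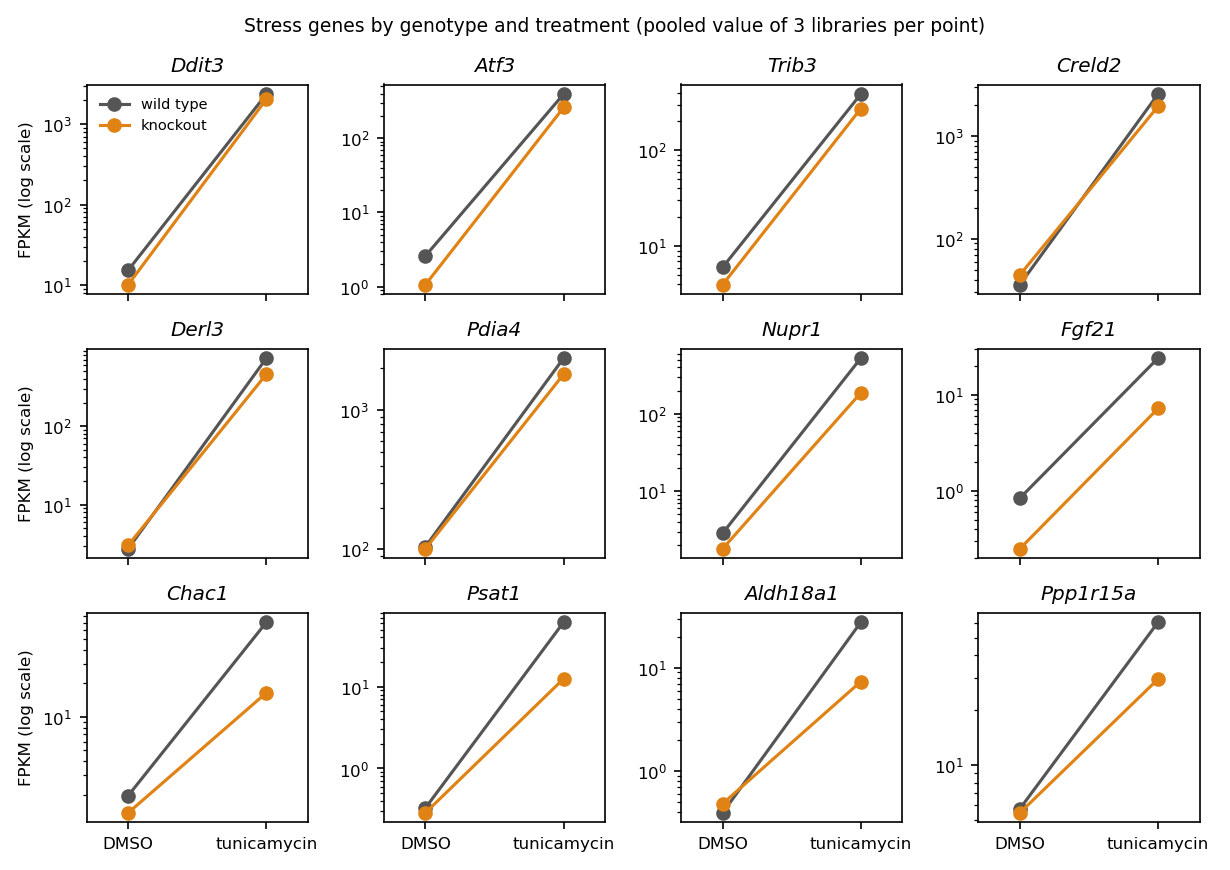
FPKM on log y axes after DMSO and tunicamycin for 12 stress genes, with 1 line per genotype and 1 point per group (pooled value of 3 libraries). The lines of Ddit3 end close together, and those of Chac1, Psat1 and Aldh18a1 end lower in the knockout.

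Enzymes that make amino acids differed between the genotypes. Of 15 tested genes of serine, asparagine, proline and one-carbon synthesis 5 rose and 5 fell in the knockout, with a median of 0.61, and 7 rose and 5 fell in wild type, with a median of 1.86. The serine synthesis enzyme Psat1 (chromosome 19, 15979613 to 15999549) read 0.328 and 61.5 FPKM in wild type, against 0.286 and 12.5 in the knockout. Its level rose in both, and the knockout reached a lower one. Aldh18a1, which makes the proline precursor, read 0.392 and 27.7 FPKM in wild type, against 0.481 and 7.36 in the knockout. The difference between responses was -2.10 (SE 0.60, adjusted p 0.0499, z test) for Psat1 and -2.20 (SE 0.49, adjusted p 0.00131, z test) for Aldh18a1. With the larger of both error estimates the adjusted p were 0.0556 and 0.00148, so the call of Psat1 ended there.

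Asparagine synthetase, Asns, read 0.236 and 15.5 FPKM in wild type, against 0.105 and 2.60 in the knockout, where a log2 change of 4.63 was not called (q 0.23). The proline enzyme Pycr1 reached 2.18 FPKM in wild type, against 0.831 in the knockout, and mitochondrial Aldh1l2 of the folate cycle 4.45 and 0.459, so neither entered the members. The falling members included the folate enzymes Shmt1 (-1.34), Shmt2 (-0.93), Mthfd1 (-1.42) and Aldh1l1 (-1.14), which fell in wild type too (log2 in the authors' deposited table). Between both tunicamycin groups 7 of the list's genes were lower in the knockout and 0 higher.

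Among 14 tested amino acid transporters 5 rose and 3 fell in the knockout, where 18.1% of all loci tested were higher and 14.8% lower. Between both tunicamycin groups, where 15 transporters were tested, 6 were lower in the knockout and 3 higher. The higher ones were Slc7a6 (0.848 against 0.209 FPKM), Slc1a5 (7.83 against 4.53) and Slc38a1 (0.586 against 0.301). The arginine carrier Slc7a1 went from 0.19 to 6.61 FPKM there and from 0.165 to 11.1 in wild type. The glycine transporter Slc6a9 read 12.9 and 33.99 FPKM in wild type, against 9.81 and 9.69 in the knockout, a difference of responses of -1.41 (SE 0.29, adjusted p 0.000315, z test). It rose in wild type (log2 1.39), and in the knockout it carried no call (log2 -0.02, q 0.973). The liver's amino acid importers Slc7a2 (-2.10) and Slc38a4 (-1.31) fell in the knockout, in the authors' deposited table.

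Of 20 cytosolic tRNA synthetases, which charge tRNAs with amino acids, 16 rose and 0 fell in the knockout, with a median of 1.09, and 18 rose in wild type, with a median of 1.29. Wars rose from 12.6 to 53.3 FPKM, Sars from 21.2 to 68.1 and Rars from 20.5 to 62.2 in the knockout. Gars, one of those with an amino acid response element, reached 43.8 FPKM in the knockout and 85.8 in wild type with tunicamycin, from 20.9 and 22.4. Cars read 5.33 and 5.21 FPKM in the knockout without a call and rose from 7.33 to 13.1 in wild type. Between the tunicamycin groups 6 synthetases were lower in the knockout (Cars, Gars, Iars, Lars, Nars and Tars). No synthetase had a called difference between the responses. Of 17 mitochondrial synthetases 4 rose and 0 fell in the knockout, where 18.1% of all loci tested were higher and 14.8% lower.

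ER chaperones rose in both genotypes. Of 17 tested lumenal chaperones 12 were higher and 0 lower in each genotype, with medians of 2.29 in the knockout and 2.82 in wild type. Creld2, an ER protein disulfide isomerase-like factor (chromosome 15, 88635673 to 88657131), went from 44.3 to 1954 FPKM in the knockout and from 35.6 to 2572 in wild type. Manf, a secreted ER stress factor, went from 94.3 to 1609 FPKM in the knockout, and the BiP co-chaperone Sdf2l1 from 33.1 to 613. The nucleotide exchange factor Hyou1 rose from 58.7 to 734, the co-chaperone Dnajb9 from 26.98 to 473, and calreticulin, Calr, from 498 to 2430.2 FPKM there. None of these 6 genes had a call between both tunicamycin groups, and no chaperone had a called difference between the responses. Dnajb11 (65.7 and 369.6 FPKM in the knockout) had no call in either genotype. All 17 tested chaperones nevertheless stood lower in the knockout between both tunicamycin groups, with log2 changes from -0.57 to -0.02 and a median of -0.24. Cnpy2 was the 1 chaperone called lower there (69.5 against 103 FPKM). Hspa5 and Hsp90b1 were not estimated with tunicamycin.

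Disulfide oxidoreductases were higher at 10 of 15 and lower at 1 in each genotype. Pdia4 went from 101 to 1818 FPKM, Pdia3 from 219 to 1167 and Pdia6 from 209.8 to 850.4 in the knockout. The 1 fall was Qsox1, a Golgi and secreted oxidase (-0.70 in the authors' deposited table). Among 18 sensors and regulators 8 rose and 0 fell. PERK itself, Eif2ak3, rose from 4.88 to 28.8 FPKM, Atf6 from 14.6 to 64.9 and IRE1, Ern1, from 16.4 to 40.98 in the knockout. The value of Xbp1, whose message is activated by splicing that a gene total does not show, was 125 and 162 FPKM without a call.

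Of 26 genes of ER-associated degradation 19 rose and 1 fell in the knockout, against 19 and 2 in wild type. Derl3, a channel component of this pathway (chromosome 10, 75356064 to 75384397), went from 3.04 to 461 FPKM in the knockout (q 0.00259) and from 2.74 to 737 in wild type. The ubiquitin ligase Syvn1 rose from 33.5 to 642 FPKM and its partner Sel1l from 33.1 to 353. Of 32 genes of ER translocation, glycosylation and signal peptide processing 23 rose and 0 fell, led by Gfpt1, which starts hexosamine synthesis (7.37 to 97.8 FPKM), and Srprb of the signal recognition receptor (10.4 to 54.4). Dpagt1, the enzyme that tunicamycin blocks, rose from 19.8 to 42.1 FPKM in the knockout and from 18.5 to 46.8 in wild type. Of 30 genes of COPII and COPI vesicle transport 21 rose and 2 fell, with the coat subunits Sec24d (2.20) and Sec23b (2.06) leading in the authors' deposited table. No gene of these lists had a called difference between the responses.

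Other stress lists moved less evenly, several of them near the shares of all loci tested, 18.1% higher and 14.8% lower. Proteasome subunits were higher at 1 and lower at 3 of 34 in the knockout, and the falls were the immunoproteasome subunits Psmb8 (-0.91), Psmb10 (-0.89) and Psmb9. Among 28 autophagy genes 5 rose and 6 fell: the cargo receptor Sqstm1 went from 174 to 766 FPKM, while the lysosomal regulator Tfeb fell (-1.14). Heat shock genes were higher at 3 of 19, such as the co-chaperone Bag3 (2.31), and lower at 5, such as Hspb1 (-1.03). In wild type 11 heat shock genes fell. Of 26 translation initiation factors 18 rose and 1 fell, the fall being the inhibitor Eif4ebp2 (-1.28, log2 in the authors' deposited table). Glutathione and NRF2 targets rose at 3 and fell at 5 of 19. Between the tunicamycin groups, where 20 of these were tested, 8 were lower in the knockout and 0 higher. Among the 8 were heme oxygenase Hmox1 (17.5 against 29.8 FPKM) and the oxidative stress gene Osgin1 (56.4 against 86.4). Immediate early and AP-1 genes rose at 11 and fell at 4 of 22, such as the AP-1 subunit Jun (5.19 to 23.8 FPKM) and the phosphatase Dusp1 (15.5 to 6.70). Cytosolic ribosomal proteins rose at 7 and fell at 0 of 53, with a median of 0.23. Their many processed copies in the genome make single ribosomal values uncertain.

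**Figure D4:**
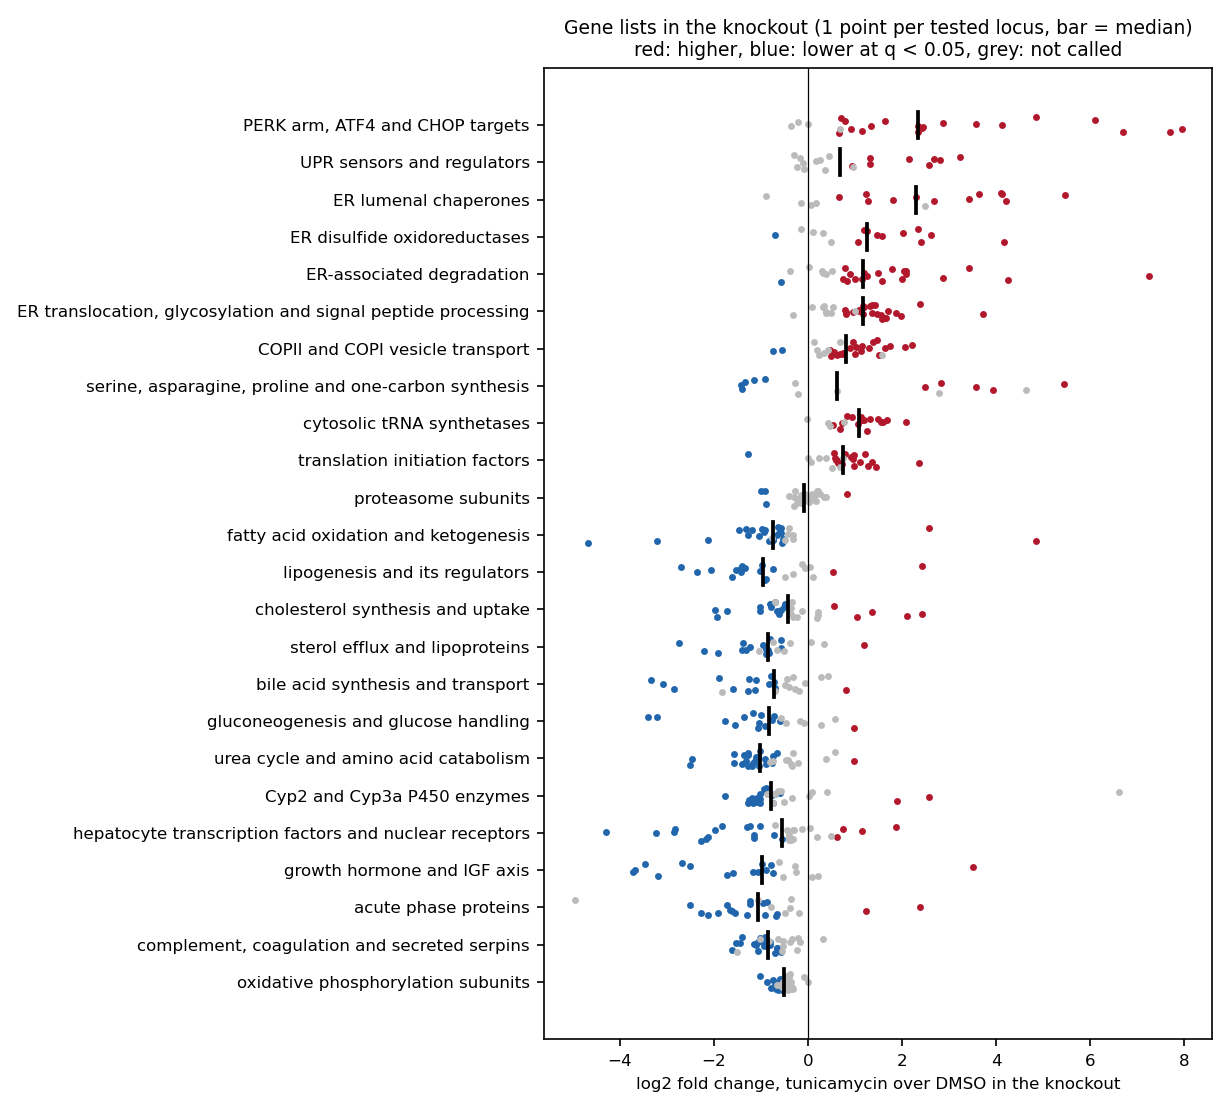
Each point is a tested locus of a gene list, placed on the x axis by its log2 fold change with tunicamycin in the knockout, and bars mark the list's median. Red and blue points passed q under 0.05. The lists of ER sensors, chaperones, oxidoreductases, degradation and translocation lie right of 0 with medians between 0.69 and 2.29, and each list drawn from fatty acid oxidation downward has its median left of 0.

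Genes of the fasting and fed metabolism of the hepatocyte fell together. Of 20 genes of gluconeogenesis and glucose handling 13 were lower in the knockout and 1 higher (Gyg, which primes glycogen), where 14.8% of all loci tested were lower. Pck1, the rate-setting enzyme of gluconeogenesis (chromosome 2, 172978574 to 172984754), fell from 1548 to 147 FPKM in the knockout and from 1782 to 144 in wild type. The coactivator Ppargc1a fell from 4.56 to 0.49 and glycogen synthase Gys2 from 123 to 36.03 FPKM in the knockout. Of 33 genes of the urea cycle and amino acid catabolism 22 fell and 1 rose, with a median of -1.02. Histidase, Hal, fell from 172 to 30.2 FPKM, glycine decarboxylase, Gldc, from 41.4 to 7.44 and the urea cycle enzyme Asl from 551 to 184. The rise was aspartate aminotransferase Got1 (233 to 459 FPKM).

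Of 29 genes of fatty acid oxidation and ketogenesis 21 fell and 2 rose in the knockout, with a median of -0.75. The regulator Ppara fell from 55.2 to 12.6 FPKM and the acyl-CoA thioesterase Acot3 from 27.9 to 1.09. Both rises were Fgf21 and Pdk4, the kinase that shuts pyruvate dehydrogenase (1.96 to 11.7 FPKM). All 24 calls among 50 subunits of oxidative phosphorylation were falls, with a median of -0.51, and 41 fell in wild type with a median of -0.77. None of these 50 had a called difference between the responses.

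Lipid synthesis fell with its regulators. Among 22 genes of lipogenesis 14 were lower and 2 higher in the knockout. Srebf1, the master regulator, fell from 98.5 to 15.2 FPKM, acetyl-CoA carboxylase Acacb from 30.2 to 5.88 and Thrsp, a lipogenic nuclear protein, from 472 to 112. The phosphatidate phosphatase Lpin1 read 53.2, 108, 128 and 63.1 FPKM. It rose in wild type and fell in the knockout, a difference of -2.04 (SE 0.32, adjusted p 2.01e-07, z test), and the knockout DMSO group on its own lane was the highest of the 4. Among 28 cholesterol genes 5 rose and 13 fell, and the largest rise was the lysosomal exporter Npc1 (32.8 to 175 FPKM). Among 23 genes of sterol efflux and lipoproteins 15 fell, such as the sterol exporter Abcg8 (34.2 to 5.12 FPKM) and Apoa5, which activates lipoprotein lipase (579 to 154). The 1 rise was the HDL receptor Scarb1, at 75.9, 59.5, 56.2 and 128 FPKM. Scarb1 is also abundant in adrenal cortex, whose markers were high in the same group, and their part in this rise was not tested.

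Lipid droplet genes rose at 6 and fell at 4 of 18 in the knockout, where 18.1% of all loci tested were higher and 14.8% lower. The droplet coat protein Plin2 went from 223 to 569 FPKM in the knockout and from 229.8 to 470.1 in wild type, and endothelial lipase, Lipg, fell from 11.2 to 0.256. Cidec (2.29 to 27.4 FPKM) and lipoprotein lipase Lpl (6.28 to 28.5) rose in the knockout and rose more than in wild type (differences 1.56 and 1.50, adjusted p 0.0398 and 0.000183, z test). With all loci of the name summed, the log2 change of Cidec in the knockout was 2.68 in place of 3.59. Both are also genes of fat, whose markers summed to 293 FPKM in that group.

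Bile acid genes fell at 13 of 25 in the knockout and at 12 in wild type. Cyp7a1, the rate-setting enzyme of bile acid synthesis (chromosome 4, 6190279 to 6202893), went from 90.6 to 8.97 FPKM in the knockout and from 105 to 13.8 in wild type. The bile acid importer Slc10a1 fell from 412 to 111 FPKM, and Nr0b2 (SHP), the repressor of bile acid synthesis, from 25.8 to 3.55. The 1 rise was the phospholipid exporter Abcb4 (89.95 to 158 FPKM). Between both tunicamycin groups 10 of 24 tested bile acid genes were lower in the knockout and 1 higher, where 2.19% of all loci tested were lower and 3.73% higher. The higher one was the steroid reductase Akr1d1, at 70.2 against 30.5 FPKM, which had fallen less in the knockout (-0.73) than in wild type (-2.24), a difference of 1.52 (SE 0.36, adjusted p 0.00404, z test). Cytochromes P450 of the Cyp2 and Cyp3a families fell at 18 of 32, such as Cyp3a25 (329.5 to 96.3 FPKM), and rose at 2, Cyp2b10 (29.7 to 177) and Cyp2u1 (2.60 to 9.60).

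Transcription factors of the hepatocyte fell as well, at 16 of 33, with 4 rises. Onecut1 (HNF6) fell from 38.4 to 1.97 FPKM, the xenobiotic receptor Nr1i3 (CAR) from 148 to 15.7, Foxa2 from 18.3 to 3.75 and Cebpa from 145 to 40.7 in the knockout. Hnf4a fell from 199 to 121 FPKM and it was lower than in wild type with tunicamycin (-0.63 in the authors' deposited table). The largest rise was Rora (10.4 to 38.3 FPKM). Among 18 clock genes Arntl (BMAL1) rose from 0.863 to 7.13 FPKM, while Hlf (16.4 to 2.51) and Dbp (68.5 to 16.8) fell. The counts were 4 rises and 7 falls in each genotype, where 18.1% of all loci tested in the knockout were higher and 14.8% lower.

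Of 4 lists that hold secreted products of the liver and, in part, receptors and signalling factors, 3 were mostly lower. Stress hepatokines and secreted signals rose at 5 and fell at 6 of 21, with a median of -0.23, where 18.1% of all loci tested were higher and 14.8% lower. In the growth hormone and IGF axis 14 of 21 genes fell: Igfals, the carrier subunit of circulating IGF, went from 77.7 to 5.84 FPKM and Igf1 from 467 to 206. The 1 rise was Igfbp1, a binding protein made in fasting and stress (44.01 to 500.1 FPKM in the knockout and 53.9 to 1028 in wild type), which was lower than in wild type with tunicamycin (-1.04). Acute phase genes fell at 16 of 25, such as haptoglobin, Hp (1747 to 556 FPKM), and serum amyloid Saa2 (122 to 25.01). The 2 rises were the pentraxin Apcs (101 to 235) and the hepcidin locus Hamp,Hamp2, which controls iron export. Hepcidin went from 2167 to 11239 FPKM in the knockout and from 4444 to 14439 in wild type, and had the highest value of the knockout with tunicamycin among loci that Cuffdiff could estimate, which leaves out albumin. Complement, coagulation and serpin genes fell at 23 of 36 with 0 rises, for example clotting factor F7 (73.9 to 23.9 FPKM) and transthyretin, Ttr (3973 to 1493).

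The largest called rises at loci of 5 FPKM or more were led by genes of other tissues: 8 of the first 12 were listed at 0 in the knockout with DMSO, such as the adrenal enzymes Th, Pnmt (16.1 FPKM with tunicamycin) and Dbh (7.28) and the neuropeptide Npy (28.4), which the sympathetic and adrenal systems make. Among those above 0 in both groups were Atf3, Ddit3, Derl3, Nupr1, Trib3, Creld2, Psat1 and Slc7a1 of the stress lists, and outside the lists Tes, a focal adhesion protein (0.647 to 57.96 FPKM), and Bhlha15 (MIST1), a transcription factor of secretory cells (0.759 to 24.01), both of which rose in wild type too (log2 6.61 and 5.95). The potassium channel Kcnk3 rose from 0.135 to 23.7 FPKM and read 0.0926 and 0.0932 in wild type. The knockout tunicamycin group alone was high for it, the pattern of the adrenal, muscle and fat markers, whose part in this rise was not tested. The 12 largest falls included Lipg, Acot3, Onecut1, Upp2, the membrane protein gene Tmem25 (22.2 to 1.15 FPKM) and the mitochondrial import-related Tomm40l (53.7 to 3.17). Each of these 6 fell in wild type as well, Tmem25 by log2 -4.88 and Tomm40l by -4.31.

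Outside the lists, large changes at abundant loci were found for genes of several kinds. The calcium pump of the ER, Atp2a2, rose from 58.7 to 349 FPKM in the knockout and the lysosomal protease Ctsl from 235 to 1078. The SNARE Stx5a of ER-to-Golgi traffic rose from 26.4 to 137, the spermidine synthase Srm from 28.95 to 141 and the iron regulator Hfe from 33.03 to 194 FPKM. The kinase Sgk1 (11.4 to 108 FPKM) and the TWEAK receptor Tnfrsf12a (6.75 to 126) rose too. Among falls, the uridine phosphorylase Upp2 went from 294 to 20.4 FPKM, the endocytic receptor Lrp1 from 133 to 18.2 and Alas1, which starts heme synthesis, from 378 to 64.04. All of these had a call in the same direction in wild type. A ranking by abundance in the knockout with DMSO leaves out loci that Cuffdiff could not estimate there, such as albumin and transferrin. Of its 10 most abundant loci, 4 fell: Apoa2 (12425 to 4956 FPKM), Fabp1 (7275 to 3305), Apoc1 (6756 to 3498) and the merged locus Serpina3k,Serpina3n (4701 to 1920.5). The other 6 (Apoe, Filip1l, Ahsg, Slc22a27, Apoa1 and Cyp2e1) carried no call, with log2 changes between -0.75 for Apoe and -0.23 for Ahsg.

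The 2 genotypes shared most of the response. Of the 2386 members that rose in the knockout and were tested in wild type 1944 rose there too (81.5%), and of the 2386 that rose in wild type and were tested in the knockout the same 1944 were called alike (81.5%; both counts happen to be 2386). Of 2007 falls in the knockout 1756 were falls in wild type (87.5%), which is 70.4% of the 2494 members that fell in wild type. Opposite calls numbered 12 among rises and 7 among falls. The z test of the difference called 147 of 14510 loci at an adjusted p under 0.05, and 64 of the 2384 member rises and 42 of the 2007 member falls that it could test were among them. With standard errors from the deposited p-value instead, it called 48 loci (30 above, 18 below).

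**Figure D5:**
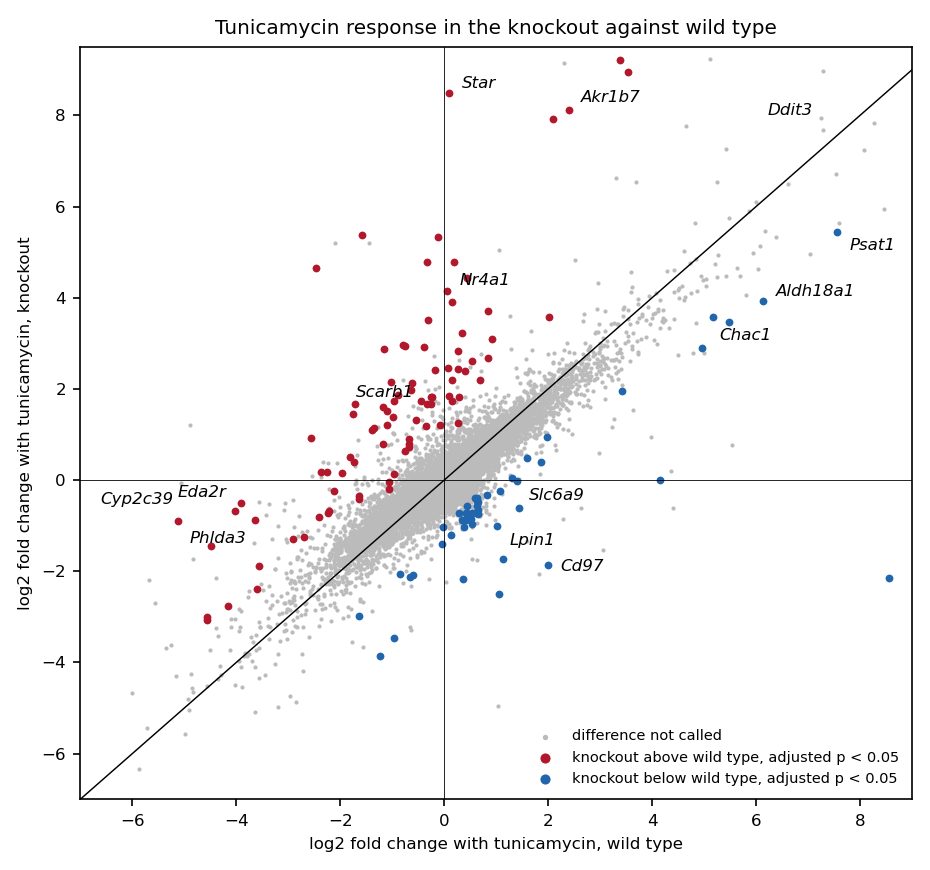
Log2 fold change with tunicamycin in wild type (x axis) and in the knockout (y axis) for 11478 members, with the line of equal responses. Another 8 members lie outside the drawn range. Red and blue points had a called difference: Psat1, Aldh18a1 and Chac1 lie below the line, and Star, Akr1b7, Nr4a1, Eda2r and Phlda3 above it.

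The 88 members with a called difference above 0 included genes of other tissues and of p53. The p53 targets Phlda3 and Eda2r fell less in the knockout than in wild type: Phlda3, an inhibitor of Akt, read 9.21, 0.736, 23.03 and 12.5 FPKM, and the receptor Eda2r read 2.72, 0.167, 5.14 and 3.19. The wild-type tunicamycin group was the low one for both. Differences were 2.76 (SE 0.46, adjusted p 1.48e-06, z test) and 3.33 (SE 0.67, adjusted p 0.00023, z test). Of 28 tested p53 targets and apoptosis regulators 5 rose and 8 fell in the knockout, where 18.1% of all loci tested were higher and 14.8% lower. Between both tunicamycin groups 10 of 27 tested were higher in the knockout and 0 lower, where 3.73% of all loci tested were higher and 2.19% lower. The orphan receptor gene Nr4a1 rose from 0.871 to 15.4 FPKM in the knockout against 0.567 and 0.592 in wild type (difference 4.09, adjusted p 1.17e-09, z test). Its level was over 5 times higher in the knockout tunicamycin group than in each other group. The part of transcripts of other tissues in this rise was not tested. Among the 88, 22 were at least 5 times higher in the knockout tunicamycin group than in every other group, the pattern of the adrenal, muscle and fat markers. Of the 88, 75 were called higher in the knockout between both tunicamycin groups, and 19 were called lower there with DMSO. Those values enter the difference too.

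Of the 52 members with a called difference below 0, 29 were higher in the knockout than in wild type with DMSO. Of all 14788 loci tested there 1.39% were higher and 1.47% lower. Between both tunicamycin groups, all on lane 4, 26 of the 52 were lower in the knockout. Values of all 4 groups enter the difference, so its selection favours both counts and neither is separate support. The 29 involve the group that ran on lane 5. Sinusoidal endothelial markers were among the 52, with 7 of 13 called below 0. Of the 13, 6 fell in the knockout, while 5 rose and 0 fell in wild type. The scavenger receptor Stab1 read 6.16, 9.38, 12.3 and 7.39 FPKM, and the VEGF receptor Kdr 8.57, 11.4, 16.5 and 9.04. For both, the knockout DMSO group was the highest. Against the wild-type DMSO group, which shares lane 4 with the knockout tunicamycin group, 2 of the 13 markers were higher and 1 lower. Lane and treatment cannot be told apart here.

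The knockout tunicamycin group was also set against wild type with DMSO, which keeps 1 lane but mixes genotype with treatment. Both comparisons share the knockout tunicamycin libraries, with their transcripts of other tissues, so agreement between them is partly built in. The lists named next gave close counts. The PERK branch had 19 rises and 1 fall, lumenal chaperones 12 and 0, ER-associated degradation 18 and 2, cytosolic tRNA synthetases 15 and 0, and gluconeogenesis 1 and 13. Other lists moved more, several of liver metabolism among them. Falls numbered 26 in place of 21 in fatty acid oxidation and 28 in place of 23 in complement and coagulation. They numbered 28 in place of 22 in the urea cycle and amino acid catabolism and 17 in place of 13 among bile acid genes. Oxidative phosphorylation had 41 falls in place of 24, proteasome subunits 9 falls in place of 3 and heat shock genes 8 in place of 5. Rises numbered 8 in place of 5 among amino acid transporters, 11 in place of 5 among p53 targets, 13 in place of 18 among translation initiation factors, 3 in place of 7 among ribosomal proteins and 3 in place of 5 among fat markers. Of the 2465 member rises 2070 were called rises in that comparison and 2 were called falls, and of the 2011 falls 1786 were falls and 1 was a rise.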

How the data were processed

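Whole-liver poly(A) RNA of 12 libraries was sequenced. Per the submitters' processing notes, bcl2fastq, TopHat2 2.0.4, Cufflinks, Cuffdiff and the mouse build mm9 were used. Per the file headers, the authors' Cuffdiff table gives FPKM per locus and group, pooled over 3 libraries by the authors, and, for each of 6 comparisons, a test statistic (here a score) beside the log2 fold change, p-value and q-value. The deposited q-value equals a Benjamini-Hochberg adjustment over all 90828 tests (largest gap 5.29e-07). Group values have no replicate error, their depth is unknown, and 1 unnamed column was not used. Log2 fold changes follow the deposited FPKM, so at low levels they are imprecise.

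A locus was called at status OK and a deposited q-value under 0.05, and a member had 1 FPKM or more in either knockout group. Responses were compared by a z test of knockout minus wild type. Its standard errors are the log2 fold change over the deposited statistic (score), rescaled by 1.73 so that the statistic matches the deposited p-value, with Benjamini-Hochberg adjustment over 14510 loci. The 49 gene lists and the members were chosen with earlier results of these data known. Named are the 12 largest called changes each way at 5 FPKM or more (at 1-gene loci), up to 4 called genes per list and direction, list genes whose role is described, the 10 largest differences each way, the 10 most abundant loci of each knockout group, Atf4, abundant unlisted loci (100 FPKM, 4-fold), and the loci at the FPKM minimum. Some genes that this rule names are not reported here. A name with several loci is represented by the most abundant. Starts are 1-based in mm9, and promoters come from RefSeq on GRCm38.p6. Stricter thresholds, other minima, a pseudocount of 1 FPKM, centring and another control group were tried as alternatives. Whether the standard errors of the difference test have the right size was not tested. Scripts ran in Python 3.11.15 with scipy 1.17.1, pandas 2.3.3 and numpy 2.4.6, and figures were drawn with matplotlib 3.10.9.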

Additional observations from a re-analysis of the deposited data

Results flagged for a closer look

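The response to tunicamycin differed between knockout and wild type at 147 loci by the z test of the difference (adjusted p under 0.05, Benjamini-Hochberg over 14510 loci), or at 48 with standard errors from the deposited p-value. The 10 largest differences in each direction at loci of 5 FPKM or more are given here as knockout minus wild type on the log2 scale of the authors' deposited table. Above 0 stood Star (8.41), the drug exporter Abcb1b (7.11), the steroid dehydrogenase Akr1c18 (6.96), the fast muscle troponins Tnnc2 (5.84) and Tnni2 (5.82), Akr1b7 (5.72), the imprinted RNA H19 (5.46), Acta1 (5.41), the myosin light chain Mylpf (5.11) and the prohormone enzyme Cpe (4.58). Each of these 10 was highest in the knockout with tunicamycin, at 8.19 FPKM for Abcb1b, 41.99 for Akr1c18, 12.95 for H19 and 20.02 for Cpe. Markers of adrenal gland, muscle and fat were high in the same group, and the part of those tissues in these differences was not tested.

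Below 0 stood 1 locus of the globin gene Hbb-b1 (-14.23), 1 locus of the anion transporter Slc22a27 (-10.71), Gm5936 (-4.16), the adhesion receptor Cd97 (-3.87), the noncoding locus Dancr,Snora26 (-3.55), Serpina4-ps1 (-2.63), the zinc finger factor Zbtb16 (-2.53), the steroid enzyme Hsd3b5 (-2.49), Aldh18a1 (-2.20) and Psat1 (-2.10). Cd97 read 7.50, 29.99, 29.9 and 8.19 FPKM, so the knockout DMSO group was as high as wild type with tunicamycin. With all loci of the name summed, the knockout change of Hbb-b1 was -0.30 in place of -8.88 and that of Slc22a27 -0.31 in place of -2.16. For Hbb-b1, Slc22a27, Dancr,Snora26, Serpina4-ps1 and Zbtb16 the knockout DMSO group, on its own lane, was the highest of the 4. With the larger of both error estimates, Star, Tnnc2, Tnni2, Acta1, Hbb-b1, Slc22a27, Gm5936 and Psat1 lost the call, with adjusted p of 0.9999 for the first 6, 0.155 for Gm5936 and 0.0556 for Psat1, and the other 12 genes kept it.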

How the results depend on the processing

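Counts were recomputed under the listed alternatives. Of 5121 loci called in the knockout, 3007 (1713 higher, 1294 lower) had at least 2-fold changes, the only alternative that moved this count by over 1.5 times. The counts under the others ran from 3825 at q under 0.01 to 5512 against wild type with DMSO. The latter, the count of 5025 without the loci 5 times higher in the knockout with tunicamycin, and the larger error were chosen after seeing the data. The 147 differences between responses became 48 (30 above, 18 below) with errors from the deposited p-value, 90 (60 above, 30 below) at an adjusted p under 0.01, 144 (81 above, 63 below) after centring and 125 with the larger error. Of 883 loci called between both tunicamycin groups, 557 (388 higher, 169 lower) were called with q adjusted within that comparison. Among members, counts ran from 3676 with a minimum of 5 FPKM in either group to 4700 with q within the comparison, against 4476. A pseudocount of 1 FPKM, tried on 298 named genes, cannot change the direction of a gene and bears on its size alone. It took scarce Aldh1l2 from 3.57 to 0.49 and Myh2 from 8.13 to 3.12, and Ddit3 only from 7.69 to 7.55. Summed loci kept the direction of all 19 names tried, although summing took Hbb-b1 from -8.88 to -0.30, Slc22a27 from -2.16 to -0.31 and Cidec from 3.59 to 2.68. No paired analysis was possible because the values are pooled over 3 libraries and replicate numbers follow accession order only, and leaving out replicates was not run for the same reason.

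Depth per library is unknown, so no interval on a single FPKM was given. A 0 at an abundant locus can be a failed estimate, and the knockout DMSO group had a lane of its own. What either does to a single gene was not tested.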

Other observations

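Other abundant loci outside the lists changed at least 4-fold in the knockout in the authors' deposited table. Higher with tunicamycin were Tfg, which organises ER exit sites (33.6 to 136 FPKM), the peroxisomal carrier Slc25a17 (34.7 to 146), the fatty acid activating enzyme Acsl4 (26.2 to 114), the antimicrobial peptide Leap2 (52.1 to 269), the inhibitor of differentiation Id3 (40.2 to 235), the ribosome assembly factor Nop58 (13.4 to 104), Ifrd1 (30.1 to 211) and the phosphate transporter Slc20a1 (22.6 to 504). Lower were the inflammasome sensor Nlrp6 (326 to 49.3 FPKM), the lipoprotein gene Apon (206 to 31.5), the mitochondrial carrier Slc25a23 (109.9 to 23.2), the prostaglandin-degrading enzyme Hpgd (122 to 27.7) and Hacl1 of peroxisomal alpha-oxidation (151 to 36.6).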
